A study of Mus musculus with 14 samples.

Results

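The respiratory chain genes described here are 59 nuclear genes for subunits of complexes I to IV, taken by name from a list that was drawn up with earlier results of these data known. The list holds 34 genes of complex I, 4 of complex II, 9 of complex III and 12 of complex IV, and 0 subunits of ATP synthase, which are described separately below. A gene counted as bound in a peak list when the centre of a peak lay within 5 kb of a start of the gene. This could be read for 41 of the 59 genes, out of 14876 protein-coding genes that could be read in all. Of the 41 genes, 25 were bound in at least 1 list (61.0%, against 24.3% of all genes).

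The respiratory chain passes electrons from NADH and succinate to oxygen and pumps protons across the inner mitochondrial membrane, and ATP synthase uses the proton gradient to make ATP. Complex I takes electrons from NADH, complex II from succinate, complex III hands them to cytochrome c, and complex IV gives them to oxygen. Muscle cells make more mitochondria as they differentiate, and some complex IV subunits exist in a widely expressed form and in a heart and muscle form. Sin3A and Sin3B are scaffolds of histone deacetylase complexes and have no known DNA-binding preference of their own.

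C2C12, an established mouse muscle cell line of C3H background, was the source of all chromatin, which was immunoprecipitated and sequenced. Growing myoblasts were kept in medium with 10% fetal bovine serum, and myotubes were confluent cells moved to 2% horse serum, from which undifferentiated cells were removed by dilute trypsin. Sin3A and Sin3B were each precipitated at both stages, in 11 samples. Sin3A had 2 samples at each stage, and Sin3B had 2 of myoblasts and 5 of myotubes. The labels name no treatment beyond the change of medium, and 3 input samples were not analysed here.

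Within each group the deposited lists were the same to the last peak, which left n = 1 list per group. No spread between cultures could be measured, and no test was made. In myoblasts there were 691 Sin3A and 2387 Sin3B peaks, and in myotubes 759 and 3769. They carry no score, depth or genome build, so a peak in 1 list and not in another may come from depth or threshold, which cannot be told apart from binding. The labels give the antibodies against both proteins 1 catalogue number. Peak lists hold no expression values, so the cell type could not be checked by markers.

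The promoters below are of genes with Sin3 peaks and show letters that match factors known for mitochondrial genes. Sequences are from RefSeq, build GRCm38.p6, and run from the base 250 bases before the start to the last base before it, read in the direction of the gene. A promoter entry was found for 48 of the 59 genes. Capitals mark CCGGAA or its reverse complement, the core read by ETS factors such as GABP, in Ndufs3 (chr2:90904722-90904971, minus strand), Uqcrh (chr4:116075071-116075320, minus strand) and Uqcr11 (chr10:80406822-80407071, minus strand). In Ndufa11 (chr17:56717512-56717761, plus strand) they mark the long form of the letters read by nuclear respiratory factor NRF1, around its core GCATGCGC.
Ndufs3: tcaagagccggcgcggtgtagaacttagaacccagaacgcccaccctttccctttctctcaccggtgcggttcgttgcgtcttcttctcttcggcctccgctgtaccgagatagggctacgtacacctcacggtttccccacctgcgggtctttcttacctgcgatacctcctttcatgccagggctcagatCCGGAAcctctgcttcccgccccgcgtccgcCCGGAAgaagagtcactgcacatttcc
Uqcrh: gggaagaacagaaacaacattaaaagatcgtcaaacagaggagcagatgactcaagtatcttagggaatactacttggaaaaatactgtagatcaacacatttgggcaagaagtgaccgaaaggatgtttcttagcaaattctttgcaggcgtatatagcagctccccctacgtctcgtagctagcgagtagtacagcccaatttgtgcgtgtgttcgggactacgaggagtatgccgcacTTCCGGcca
Uqcr11: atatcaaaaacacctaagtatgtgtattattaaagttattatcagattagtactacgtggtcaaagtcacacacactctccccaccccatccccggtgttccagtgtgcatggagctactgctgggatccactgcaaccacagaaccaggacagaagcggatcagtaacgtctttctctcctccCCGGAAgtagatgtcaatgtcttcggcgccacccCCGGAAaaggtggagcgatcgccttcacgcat
Ndufa11: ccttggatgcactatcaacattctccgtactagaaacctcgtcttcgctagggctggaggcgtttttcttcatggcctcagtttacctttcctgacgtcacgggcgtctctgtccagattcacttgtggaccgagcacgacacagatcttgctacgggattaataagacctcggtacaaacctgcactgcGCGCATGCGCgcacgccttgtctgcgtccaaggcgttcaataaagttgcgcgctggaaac
Just past the start, 4 of the 41 genes held the long form of the letters read by YY1, around its core AAGATGG; YY1 is a zinc-finger factor that also regulates mitochondrial genes. The windows below are at chr6:126849096-126849125 (Ndufa9, minus strand), chr13:114388045-114388069 (Ndufs4, minus strand), chr10:80249463-80249492 (Ndufs7, plus strand) and chr13:73328433-73328459 (Ndufs6, minus strand), with the match in capitals. Those of Ndufs4 and Ndufs6 stop where the RefSeq entry stops.
Ndufa9: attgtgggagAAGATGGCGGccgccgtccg
Ndufs4: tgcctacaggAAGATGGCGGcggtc
Ndufs7: ggccgaggccAAGATGGCGGcgctggcggg
Ndufs6: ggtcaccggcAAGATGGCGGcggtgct
Ndufa9, Ndufs4 and Ndufs7 had Sin3B peaks at both stages, and Ndufs6 had no peak within 5 kb in any list.

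The peaks were brought to the gene starts of GRCm38.p6 by 1 shift for each 10 Mb block of peaks. The shift was the one that put most peak centres of all lists within 1 kb of a protein-coding gene start. A block was used when at least 50% of its centres were so placed and no shift more than 20 kb away did as well. This held for 201 of 258 blocks with 6359 of 7606 peaks (83.6%). The median share of centres near a start was 75.0% in the blocks used, against 30% for the next best shift. Distances are therefore known to about 1 kb, whereas widths and overlaps between lists do not depend on the shift. Peak positions below are those of the files, counted from 1, in the files' own build.

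**Figure D1:**
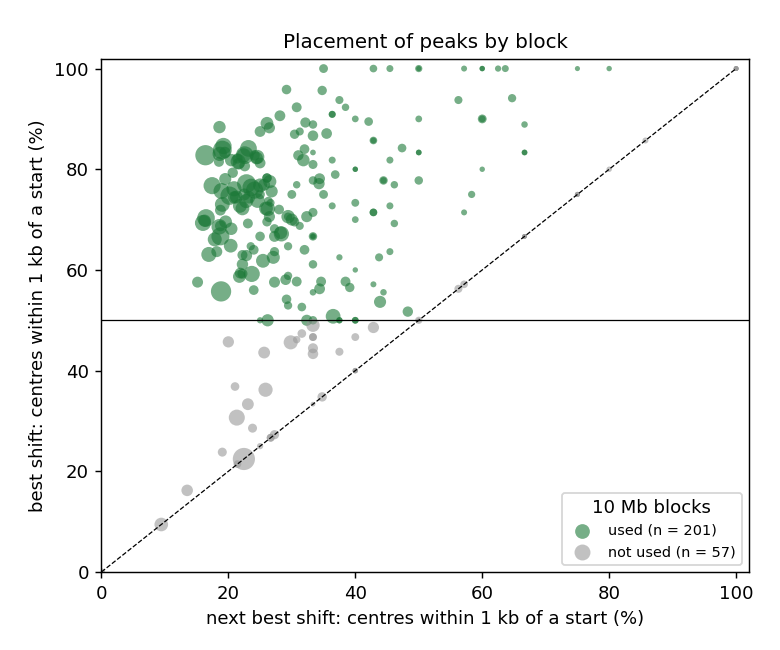
Share of peak centres within 1 kb of a protein-coding gene start (%) under the best shift (vertical) and under the best shift more than 20 kb away (horizontal), for each 10 Mb block; point area grows with the number of peaks. The 201 blocks used lie above both the 50% line and the dashed line of equal shares.

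Within 1 Mb of 38 of the 41 genes, at least 50% of the peaks lay near a start, and the shift was taken to hold there. The peaks of the gene itself are in this count, so a bound gene helped to pass its own check. Ndufa5 passed on 3 of 3 peaks and Ndufa9 on 4 of 8, each with its own Sin3B peaks of both stages among them. Ndufa9 could not be read with blocks of 5 Mb. The shift did not hold around Sdhb (0 of 19 peaks), Sdhd (1 of 10) and Cox8a (3 of 18), and for these 3 genes the lack of a peak says nothing. The other 18 genes were not read in this way. Ndufa1, Ndufa3, Ndufb6, Ndufb11, Cox6a1, Cox7b and Cox7c lay in blocks that were not used, and Ndufa2, Ndufb9, Ndufs1, Sdhc, Uqcrc2, Uqcrb, Uqcrq, Cyc1, Cox4i1, Cox6a2 and Cox6c had no start in the table.

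Sin3B in myoblasts was found at most of the genes that could be read. It was listed at 23 of 41 (56.1%, against 12.8% of all 14876 genes), and Sin3B in myotubes at 15 of 41 (36.6%, against 19.8%). The order of the stages was thus opposite to that of all genes, more of which were bound in the longer myotube list. Sin3A was listed at 2 of 41 genes in myoblasts (4.88%, against 2.18%) and at 1 of 41 in myotubes (2.44%, against 4.46%). At either stage Sin3A was listed at 3 of 41 (7.32%, against 5.95%), counts too small to read against the background.

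The Sin3B lists differ in length, so they were also compared at the same length, with the 691 widest peaks of each. Sin3B was then listed at 14 of 41 genes in myoblasts (34.1%, against 4.32% of all genes) and at 5 of 41 in myotubes (12.2%, against 4.35%). At equal length the background of the stages was nearly equal and the order of the stages at the respiratory chain genes was as before. The 691 widest are a larger part of the 2387 myoblast peaks than of the 3769 myotube peaks, so the width limit was stricter in myotubes. The 647 bp myoblast peak of Ndufs7 was kept, and the 744 bp myotube peak of Ndufa9 was not. This choice of peaks by itself favours the myoblast count, so the comparison does not remove the effect of list length. The counts of bound genes describe 2 lists, and no difference between cultures was tested.

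**Figure D2:**
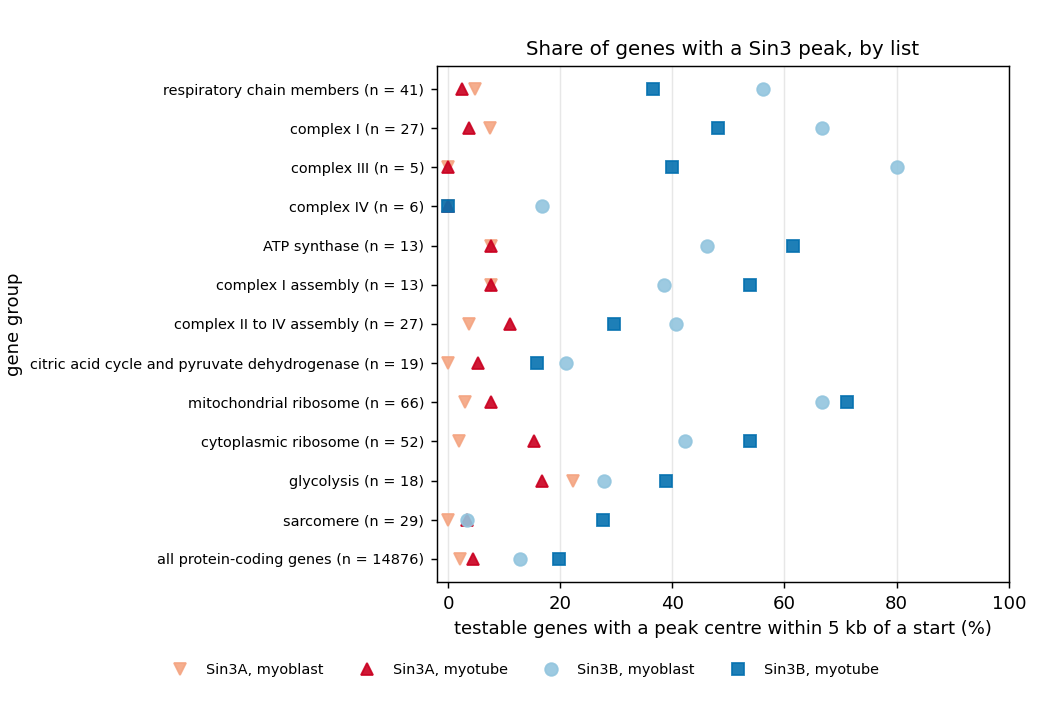
Share (%) of the genes of each group that have a peak centre within 5 kb of a start, for the 4 peak lists (1 list each, no error bars); n is the number of genes that could be read, and complex II is left out because the shift did not hold around 2 of its 3 genes. For the respiratory chain members the Sin3B myoblast share (56.1%) is above the Sin3B myotube share (36.6%), while for all protein-coding genes it is below (12.8% and 19.8%).

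By stage, Sin3B at the 41 respiratory chain genes that could be read was shared or confined to the myoblast list, with 1 exception. Of the 24 genes with Sin3B, 14 had it at both stages (34.1% of the 41 genes, against 9.23% of all genes) and 9 in myoblasts and not in myotubes (22.0%, against 3.6%). Ndufv2 was the 1 gene with Sin3B in myotubes and not in myoblasts (2.44%, against 10.6%). As shares of the genes with Sin3B, myotube-only binding made up 4.17% at the respiratory chain and 45.2% over all genes, and myoblast-only binding 37.5% and 15.4%.

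Complex I makes up 27 of the 41 genes, and 20 of the 27 were bound in at least 1 list (74.1%, against 24.3% of all genes). Sin3B was listed at 18 of 27 in myoblasts (66.7%, against 12.8%) and at 13 of 27 in myotubes (48.1%, against 19.8%). Its core subunits carry the NADH site and the iron-sulfur clusters. Ndufs7, a core subunit next to the quinone site, had the most lists, with a Sin3A peak of 410 bp in myoblasts (chromosome 10, 79711796 to 79712205) and Sin3B peaks of 647 bp in myoblasts (79711965 to 79712611) and 919 bp in myotubes (79711799 to 79712717). The Sin3A peak overlapped the Sin3B myoblast peak by 241 bp and the Sin3B myotube peak by 407 bp. Ndufs7 was the only gene of the 41 with peaks in 3 lists, and none had peaks in all 4.

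Ndufs3, another core subunit, had Sin3B peaks of 723 bp in myoblasts and 1245 bp in myotubes on chromosome 2, at 90744390 to 90745112 and 90744132 to 90745376. Their centres were 3 bp apart, and the myotube peak held the whole myoblast peak. As placed, both were nearer to the start of Kbtbd4. Ndufv1, which binds NADH, had Sin3B peaks of 710 bp in myoblasts (chromosome 19, 4012316 to 4013025) and 517 bp in myotubes, which overlapped by 385 bp. Here the myoblast peak was the wider one. Ndufs8, an iron-sulfur subunit, had a Sin3B peak of 381 bp in myoblasts and none in myotubes. Ndufv2, an iron-sulfur subunit of the NADH-oxidising module, had a Sin3B peak of 361 bp in myotubes (chromosome 17, 66450256 to 66450616) and none in myoblasts. Core subunits were therefore found in each of the 3 Sin3B patterns.

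The accessory subunits surround this core and are needed for its assembly or stability. Ndufb3, of the membrane arm, had the widest Sin3B myotube peak of the 41 genes, 1350 bp (chromosome 1, 58642601 to 58643950), which held the whole myoblast peak of 783 bp. Ndufb5, also of the membrane arm, had their widest myoblast peak, 1214 bp (chromosome 3, 32635134 to 32636347), with 998 bp in myotubes. Each of these widest peaks exceeded 98.7% of the peaks of its list. As placed, the Ndufb3 myotube peak was nearer to the start of Fam126b, and both Ndufb5 peaks were nearer to that of Mrpl47. Ndufs4, whose loss in humans causes Leigh syndrome, had peaks of 490 bp in myoblasts and 737 bp in myotubes with centres 9.5 bp apart.

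Ndufa5, Ndufa9, Ndufa10, Ndufa12 and Ndufb7 also had overlapping Sin3B peaks at both stages. Their widths in myoblasts and myotubes were 955 and 524 bp for Ndufa5, 810 and 744 bp for Ndufa9, and 798 and 830 bp for Ndufa10. For Ndufa12 they were 748 and 431 bp, and for Ndufb7 they were 624 and 631 bp. Widths at these 5 genes were thus similar at both stages or larger in myoblasts. Ndufb10 was bound at both stages by the 5 kb rule, but its peaks did not overlap. The 554 bp myoblast peak lay near the start. The 191 bp myotube peak lay 4314 bp downstream of it, nearest to the start of Rps2, a gene of the small ribosomal subunit.

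At 5 further accessory genes Sin3B was listed in myoblasts and not in myotubes: the peak was 739 bp wide at Ndufa8, 676 bp at Ndufb2, 554 bp at Ndufs5, 408 bp at Ndufb8 and 274 bp at Ndufa13. Ndufa13, also known as GRIM-19, had in addition a Sin3A peak of 440 bp in myoblasts (chromosome 8, 72425117 to 72425556) that overlapped its Sin3B peak by 115 bp. Ndufa11, a membrane arm subunit, was the 1 gene with Sin3A and no Sin3B, with a 472 bp Sin3A peak in myotubes (chromosome 17, 56856637 to 56857108). Each of the 3 genes with Sin3A had it at 1 stage, and the 2 with Sin3A in myoblasts also had Sin3B in myoblasts.

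**Figure D3:**
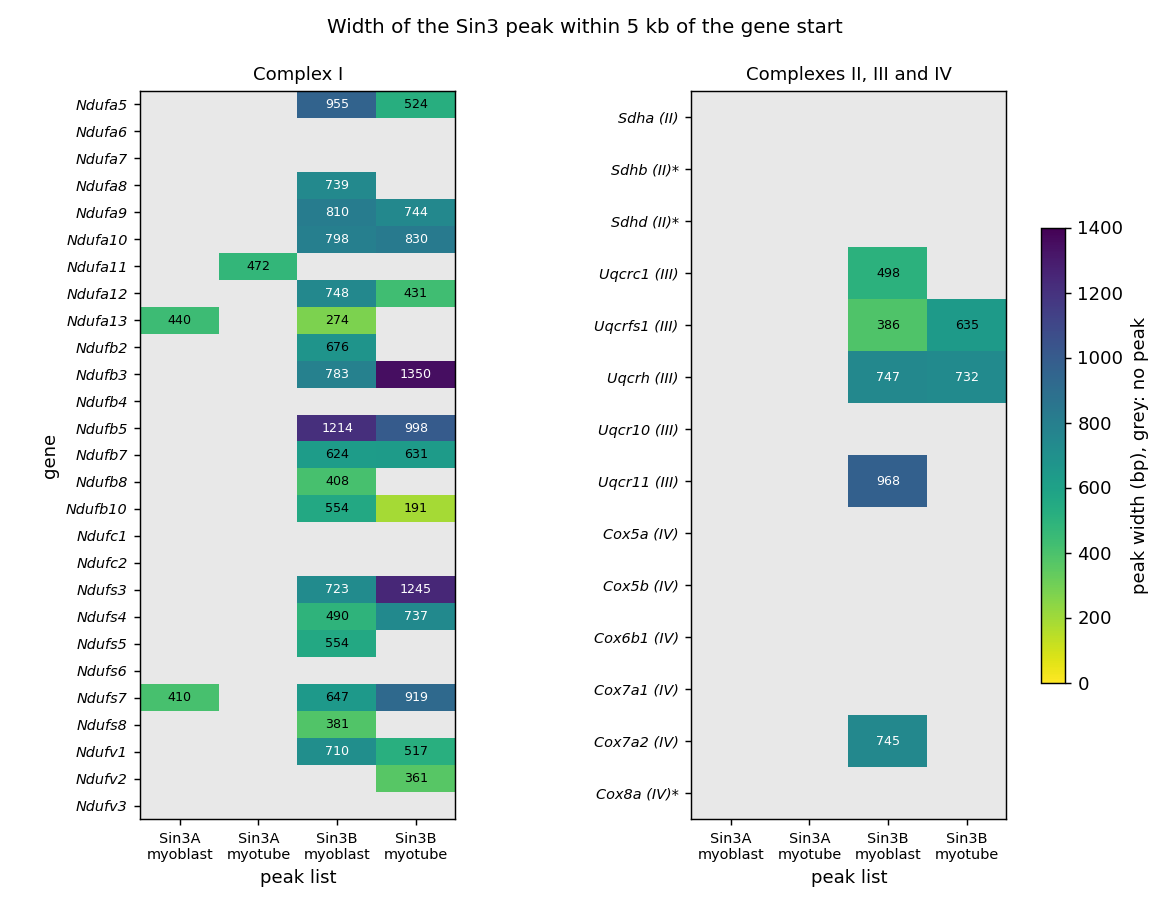
Width in bp (colour and number) of the peak within 5 kb of the start of each of the 41 genes, by peak list; grey marks no peak, and an asterisk marks Sdhb, Sdhd and Cox8a, around which the shift did not hold. Most filled cells are in the Sin3B columns, with 23 in myoblasts and 15 in myotubes, and 3 are in the Sin3A columns.

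In complex III, 4 of 5 genes had Sin3B in myoblasts (80.0%, against 12.8% of all genes) and 2 of 5 in myotubes (40%, against 19.8%). Uqcrfs1, the Rieske iron-sulfur protein, had peaks of 386 bp in myoblasts and 635 bp in myotubes (chromosome 13, 30636983 to 30637368 and 30636634 to 30637268). Uqcrh, the hinge protein next to cytochrome c1, had peaks of 747 and 732 bp whose centres were 541.5 bp apart, the largest gap among the overlapping pairs. Uqcr11, a small subunit, had a myoblast peak of 968 bp, wider than 94.6% of that list, and none in myotubes. Uqcrc1, a core protein on the matrix side, had a myoblast peak of 498 bp and none in myotubes. Uqcr10 had no peak within 5 kb, and the nearest lay 66.3 kb away.

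In complex IV, 1 of the 6 genes read had a peak (16.7%, against 24.3% of all genes in at least 1 list and 12.8% for Sin3B in myoblasts), which is near the background. The shift held around 5 of the 6. Cox6a1 and Cox4i1, which are not among the 6, had Sin3B peaks in the other readings given below. Cox7a2, the widely expressed form of subunit 7a, had a Sin3B peak of 745 bp in myoblasts (chromosome 9, 79607094 to 79607838) and none in myotubes. Cox7a1, the heart and skeletal muscle form of the same subunit, had no peak within 5 kb in any list, and the nearest was a Sin3B myotube peak 10.4 kb away. Cox5a, Cox5b and Cox6b1 had no peak within 5 kb either. In complex II, Sdha, the flavin-binding subunit, had none, with the nearest 33.7 kb away.

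Some of the genes that the 10 Mb blocks could not settle were read with blocks of 5 Mb. Sdhb, the iron-sulfur subunit of complex II, then had Sin3B peaks of 519 bp in myoblasts and 578 bp in myotubes, with 11 of 20 peaks within 1 Mb near a start. Sdhd, a membrane anchor of complex II, had Sin3B peaks of 778 and 518 bp, with 9 of 10 peaks near a start. Cox6a1, the widely expressed form of subunit 6a, had Sin3B peaks of 475 bp in myoblasts and 447 bp in myotubes, with 14 of 17 near a start. Ndufa3 had none within 5 kb. These genes are not in the counts above, where Sdhb and Sdhd stand as unbound.

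For genes with no start in the table, peaks were looked for within 5 kb of either end of the gene, without knowing here which end is the start. Ndufs1, the largest core subunit of complex I, had Sin3B peaks of 1429 bp in myoblasts (chromosome 1, 63222735 to 63224163) and 1076 bp in myotubes at 1 end. Eef1b2 had Sin3B peaks of the same widths, so these peaks cannot be given to Ndufs1 alone. Sdhc, the other anchor of complex II, had Sin3B peaks of 653 and 379 bp. Uqcrq of complex III had a Sin3B peak of 414 bp in myoblasts. Cox4i1, the widely expressed form of complex IV subunit 4, had 2 Sin3B peaks in myotubes, the wider of 603 bp, and none in myoblasts. Uqcrc2 and Cox6a2, the muscle form of subunit 6a, had no peak at either end. Read in these ways, 3 of the 4 genes of complex II had Sin3B at both stages. In complex IV, Cox6a1 and Cox4i1 had Sin3B besides Cox7a2. The muscle forms Cox7a1 and Cox6a2 had no peak in any list, and neither had Cox5a, Cox5b and Cox6b1.

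Peaks at the respiratory chain genes were placed near the gene start. The shifts were chosen to put most centres within 1 kb of a start, so this closeness was partly set by the placement. Medians below 1 kb are finer than its precision. In the Sin3B myoblast list all 23 bound genes had the centre within 1 kb (median distance 210.5 bp), against 88.7% of all bound genes. In the Sin3B myotube list this held for 14 of 15 (median 191 bp), against 91.1%, with Ndufb10 as the exception. Of the genes without a peak, those nearest to the 5 kb limit were Ndufc1 and Ndufv3, with Sin3B peaks 6.69 and 7.95 kb from the start, and the next was Cox7a1. The remaining genes without a peak were Ndufa6, Ndufa7, Ndufb4, Ndufc2 and Ndufs6 of complex I and those named above.

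**Figure D4:**
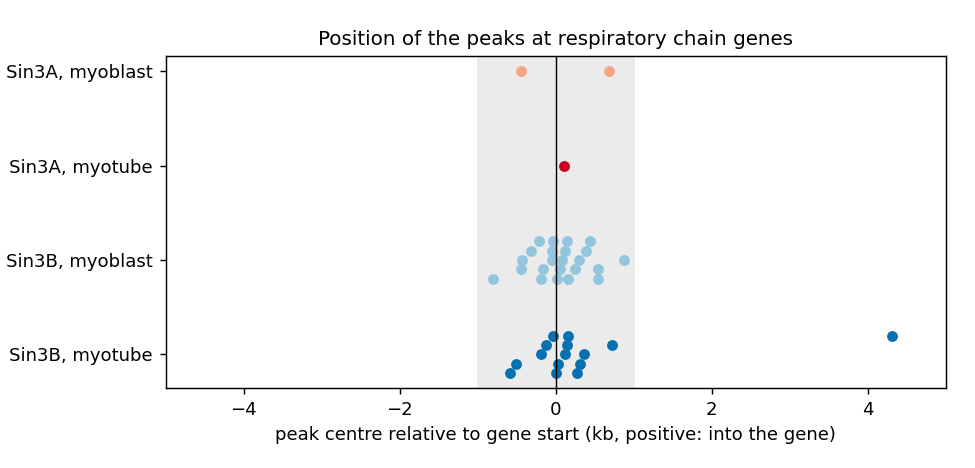
Distance in kb of the centre of each of the 41 peaks at respiratory chain genes from the gene start (positive downstream), by list. The shaded band is 1 kb to either side, the precision of the placement. All 41 peaks but the Sin3B myotube peak of Ndufb10 at 4314 bp lie in the band.

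Some of these starts are shared with another gene. A gene on the opposite strand started within 1 kb of 12 of the 41 genes (29.3%, against 16.6% of all genes), and 8 of the 12 were bound in at least 1 list (66.7%, against 48.2% of the 2470 genes with such a neighbour). With Sin3B alone the shares were 58.3% against 29.6% in myoblasts and 41.7% against 40.3% in myotubes. Among the partners were Mrpl47, a mitochondrial ribosomal protein gene, at Ndufb5, Kbtbd4 at Ndufs3, Fam126b at Ndufb3, Lrrc41 at Uqcrh, Vmac at Ndufa11, Asb15 at Ndufa5, Morn5 at Ndufa8 and Tssk6 at Ndufa13. At such a pair a peak cannot be given to 1 gene. Of the 41 peaks, 7 were nearer to the start of another gene. When each peak counted for its nearest gene only, Sin3B was listed at 21 of 41 respiratory chain genes in myoblasts (51.2%, against 10.2%) and at 10 in myotubes (24.4%, against 16.6%).

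Sin3B peaks within 5 kb of the respiratory chain genes had larger median widths than the promoter peaks of the same list. The widest of them were nearer to the start of another gene. These were the peaks at Ndufb5 and Ndufs3 at both stages and at Ndufb3 in myotubes. In myoblasts the 23 peaks ranged from 274 to 1214 bp with a median of 710 bp, against 512 bp for all peaks within 5 kb of a start. In myotubes the 15 peaks ranged from 191 to 1350 bp with a median of 732 bp, against 553 bp. The single Sin3A myotube peak of 472 bp was close to the median of 470.5 bp for its list. No test was made of these medians.

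At the 14 genes with Sin3B at both stages, 13 pairs of peaks overlapped, with a median of 177.5 bp between centres. The myotube peak was the wider at 7 of the 14 (50%), against 58.1% of the 1373 genes bound at both stages in all. Median widths at the 14 genes were 735 bp in myoblasts and 734.5 bp in myotubes, against 555 and 627 bp over all such genes.

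**Figure D5:**
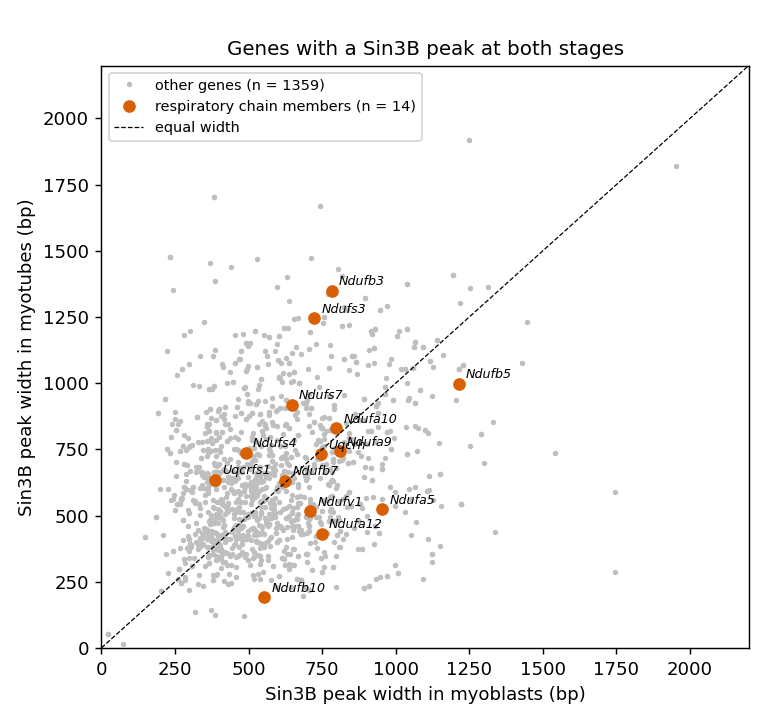
Width in bp of the Sin3B peak nearest the start in myoblasts (horizontal) and myotubes (vertical) for the 1373 genes with Sin3B at both stages; orange points are the 14 respiratory chain genes, and the dashed line marks equal width. Ndufb3 (783 and 1350 bp) and Ndufs3 (723 and 1245 bp) lie farthest above the line and Ndufa5 (955 and 524 bp) below it.

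Promoters of the respiratory chain genes were often rich in CpG. By a GC content of at least 50% and an observed-to-expected CpG ratio of at least 0.6 over 300 bases, 32 of the 41 were CpG-rich (78.0%, against 49.9% of all genes). Over all CpG-rich promoters, Sin3B was listed at 21.0% in myoblasts and 33.6% in myotubes, and Sin3A at 3.51% and 7.73%. Among the 32 CpG-rich respiratory chain genes it was listed at 18 in myoblasts (56.2%) and 12 in myotubes (37.5%), with Sin3A at 2 and 1. The myotube share was thus close to that of CpG-rich promoters, and the myoblast share was above it. The 9 other genes had Sin3B at 5 starts in myoblasts and 3 in myotubes. The promoter of Cox7a1 had a CpG ratio of 0.333 and that of Cox7a2 0.833.

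Letters were searched in the window from 250 bases before to 50 after the start, on both strands, and the shorter letters lie within the longer ones. CCGGAA was found at 17 of 41 genes (41.5%, against 20.9% of all 17492 genes with a promoter entry) and CCGGAAGT at 4 (9.76%, against 5.69%). GCATGCGC, the NRF1 core, was found at 6 (14.6%, against 3.94%) and its long form at 2 (4.88%, against 1.47%), Ndufa11 and Uqcrc1. The long YY1 form was found at 4 (9.76%, against 1.41%), where it began 24 to 35 bases past the start, and its core AAGATGG at 6 (14.6%, against 7.18%). The Sp-factor core GGGCGG was at 15 (36.6%, against 49.2%), GGGGCGGGG at 5 (12.2%, against 17.3%), TATAAA at 3 (7.32%, against 14.8%) and the E-box CAGCTG at 4 (9.76%, against 17.4%). A match is a description of the letters and not a site. The background is all promoters. CpG-rich promoters were more frequent at the respiratory chain genes (78.0%, against 49.9%), and the part of base composition in these shares was not tested.

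Most of these letters were found at genes with and without Sin3B. CCGGAA was at 11 of 24 genes with Sin3B (45.8%) and 6 of 17 without (35.3%). GCATGCGC was at 3 of 24 and 3 of 17, and the long YY1 form at 3 of 24 and 1 of 17. The 17 include Sdhb, Sdhd and Cox8a, around which the shift did not hold, so their lack of a peak says nothing. CCGGAA was at each of them and GCATGCGC at Sdhb. With blocks of 5 Mb, Sdhb and Sdhd had Sin3B at both stages. The shares with and without Sin3B can therefore not be compared for CCGGAA and GCATGCGC. CAGCTG, read by E-box factors such as MyoD, was at 4 genes with Sin3B (Ndufa8, Ndufb10, Ndufs5 and Ndufv2) and at 0 of 17 without. Over all genes that could be read, 11% of those with CAGCTG had Sin3B in myoblasts and 17.6% in myotubes, below the 12.8% and 19.8% of all genes. TATAAA was also below, and the other letters searched were above. For genes with CCGGAA the shares were 28.6% and 39.2%, with GCATGCGC 24.7% and 37.0%, and with the long YY1 form 38.8% and 59.8%. Over all CpG-rich promoters they were 21.0% and 33.6%, and the part of CpG content in these shares was not tested. The counts at respiratory chain genes are small and were not tested.

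The other genes of oxidative metabolism were counted from further lists. Of 13 ATP synthase genes, Sin3B was listed at 6 in myoblasts (46.2%, against 12.8% of all genes) and 8 in myotubes (61.5%, against 19.8%). Peaks were found in 3 lists at Atp5md, with Sin3A of 398 bp in myotubes and Sin3B of 193 and 888 bp in myoblasts and myotubes. Atp5b, the catalytic beta subunit, had Sin3A of 480 bp in myoblasts and 2 Sin3B peaks in myotubes, of which the one nearest the start was 635 bp wide. Atpif1, the inhibitor of the enzyme, had Sin3B of 721 and 852 bp at the 2 stages. Atp5j had a Sin3B peak of 480 bp in myoblasts and 2 in myotubes, of 354 bp nearest the start and 891 bp farther away. These are also the peaks of Gabpa, an ETS factor of mitochondrial genes. The Sin3B widths at Atp5md and Atpif1 were also those at Pdcd11 and Dnajc8, so these peaks may be shared too. The order of the stages at the ATP synthase genes was that of all genes, and its difference from complexes I to IV was not tested.

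The shares in the lists that follow stand against 12.8% of all genes with Sin3B in myoblasts and 19.8% in myotubes. Genes that assemble complex I had Sin3B at 5 of 13 in myoblasts (38.5%) and 7 of 13 in myotubes (53.8%). At Ndufaf5, Sin3A of 430 bp in myoblasts stood with Sin3B of 471 and 465 bp. Genes that assemble complexes II to IV had it at 11 of 27 in myoblasts (40.7%) and 8 of 27 in myotubes (29.6%), among them Coa5, with Sin3B of 918 and 1185 bp and Sin3A of 478 bp in myotubes. Citric acid cycle and pyruvate dehydrogenase genes had it at 4 and 3 of 19 (21.1% and 15.8%), near those of all genes, with both stages at Idh3b, a subunit of isocitrate dehydrogenase, at 574 and 744 bp. Ndufa4 and Cox7a2l, subunit genes outside the 59, both had Sin3B at both stages. The Sin3B widths at Ndufaf5, Coa5 and Ndufa4 were also those at Esf1, Unc50 and Phf14, in that order, so these peaks may be shared.

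Regulators of mitochondrial genes had Sin3B at 6 of 21 in myoblasts (28.6%, against 12.8% of all genes) and 8 in myotubes (38.1%, against 19.8%). Nfe2l2, a regulator of the oxidative stress response, had a peak in all 4 lists, of 857 and 507 bp for Sin3A and 630 and 1402 bp for Sin3B, in myoblasts and myotubes. Tfam, which packages mitochondrial DNA, had Sin3B of 362 and 592 bp and Sin3A of 466 bp in myotubes. Twnk, the mitochondrial DNA helicase, had Sin3B of 389 and 860 bp and Sin3A of 441 bp in myoblasts, and these are also the peaks of Mrpl43.

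Mitochondrial ribosomal protein genes had Sin3B at 44 of 66 in myoblasts (66.7%, against 12.8% of all genes) and 47 in myotubes (71.2%, against 19.8%), the highest shares among these lists. Cytoplasmic ribosomal protein genes had it at 22 of 52 (42.3%) and 28 (53.8%), and glycolysis genes at 5 of 18 (27.8%) and 7 (38.9%). Sarcomere genes had it at 1 of 29 in myoblasts (3.45%) and 8 in myotubes (27.6%), below and above the shares of all genes. In the ribosomal, glycolysis and sarcomere lists the myotube share was the higher, as over all genes. At the respiratory chain genes the myoblast share was the higher. The same order was seen for the assembly of complexes II to IV (40.7% in myoblasts and 29.6% in myotubes). It was also seen for citric acid cycle and pyruvate dehydrogenase genes (21.1% and 15.8%). No test of these differences between lists was made.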

How the data were processed

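The authors deposited 11 peak lists as chromosome, start and end in bp, per the files themselves, with no header or score. For the aligner, peak caller, threshold, genome build and pooling, no statement is given in the sources used here. Read depth is unknown. Libraries were amplified by 18 cycles of PCR, per the labels' protocols. Identical files of a group were counted once, which left 4 lists. Gene starts and strands were taken from the RefSeq promoter table and gene types from the RefSeq gene table, both of GRCm38.p6. Of 21900 protein-coding genes, 17492 had a start and 14876 could be read. Shifts of -8 to +8 Mb in 1 kb steps were tried for each 10 Mb block. Ties were settled by the smaller median distance to a start. No coordinate was converted for printing. The members and gene lists were chosen with earlier results of these data known. Every respiratory chain gene with a peak is named, as are those without one. Of the other lists at most 4 genes are named, those in most lists and with the widest peaks. Scripts ran under Python 3.11.15 with pandas 2.3.3, numpy 2.4.6 and matplotlib 3.10.9. The condition that no distant shift does as well was added after seeing the data. Alternatives changed the distance limit, block size, block share, gene set, peak set and samples.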

Additional observations from a re-analysis of the deposited data

How the results depend on the processing

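Counts of bound respiratory chain genes were recomputed under 17 alternatives, 4 of which were chosen after seeing the data. Sin3B was listed at 14 to 26 genes in myoblasts and at 5 to 19 in myotubes, and the myoblast share was the higher under all 17. The share of these genes with Sin3B was above that of all genes under all 17 at both stages. With the widest peaks at equal list length the counts were 14 for Sin3B in myoblasts, 5 for Sin3B in myotubes and 16 for any list, as shorter lists hold fewer peaks. The width limit of this alternative was stricter for Sin3B in myotubes than in myoblasts. The single gene with Sin3A in myotubes became 0 with blocks of 20 Mb and with peaks at or above the median width, and 2 when every block reaching 50% was used. Blocks of 5 Mb gave 24 of 40 genes for Sin3B in myoblasts and 16 in myotubes. Leaving out any 1 sample changed no count, since the files of a group are identical. No paired analysis was possible because the identical files leave 1 list per group. Unknown depth limits every statement about a gene without a peak.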
